A study of Homo sapiens with 4 samples.

Results

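Mucin genes were followed in nascent RNA of human colon cancer cells that lost the transcriptional regulator KAP1 (also called TRIM28). The genes described are 10 mucin genes of 19901 genes in the count table, namely MUC22, MUC21, MUC1, MUC2, MUC3A, MUC5AC, MUC5B, MUC12, MUC13 and MUC20. They were found by matching each Ensembl identifier to its gene symbol, and all 10 were present. They were selected on the DMSO against dTAG comparison itself, with MUC22 known to be among the largest falls, so their differences between these groups are given below as a description with no p-value.

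The cells were HCT116, an established colon cancer line, in which both KAP1 alleles carry the FKBP12 F36V degron and a 2xHA tag at the C-terminus. The dTAG molecule binds this degron and sends the tagged protein to the proteasome. The libraries came from a single clone, D5, and the control cells carry the tagged alleles too. In homeostatic culture with serum, 2 libraries were made after 8 h of DMSO, the vehicle, and 2 after 8 h of dTAG. RNA made during the last 10 min was labeled with 500 µM 4-thiouridine, enriched and sequenced (TT-Seq), so counts follow new transcription over the whole gene, introns included, more closely than stored mRNA. The libraries are numbered replicates with 3 dishes pooled for each, and the methods call them biological replicates of the 1 clone. The errors below measure the spread between these libraries.

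Mucins are large glycoproteins whose central region is built from repeats rich in serine, threonine and proline, and these residues carry dense chains of O-linked sugars. The secreted gel-forming mucins, among them MUC2, MUC5AC and MUC5B, polymerize into the mucus layer. The transmembrane mucins, among them MUC1, MUC3A, MUC12, MUC13, MUC20, MUC21 and MUC22, stay on the apical cell surface, where they form the glycocalyx and can pass signals to the cell. In the colon, MUC2 is the main product of goblet cells, while MUC1, MUC3A, MUC12 and MUC13 are made by surface epithelial cells and MUC5AC is typical of the stomach and airway.

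The depth in gene counts ranged from 93105627 to 102314741, and the 12612 genes that reached 50 counts in every library were tested. KAP1 is removed as a protein, so its RNA does not check the labels, and TRIM28 stood at 61.6 and 69.7 CPM (counts scaled to the size of the library) in DMSO and at 53.5 and 47.9 in dTAG. Epithelial markers EPCAM, CDH1, KRT8, KRT18 and KRT19 passed the count minimum, while KRT20, VIL1, CDH17 and LGALS4, markers of differentiated colon cells, were under it. The summed level of all 9 epithelial markers was between 1040 and 1150 CPM across the libraries. Summed over 5 markers each, leukocyte genes, led by CD68, reached 3.47 to 4.26 CPM. Fibroblast genes, led by COL1A1 and with COL1A2 at 0, reached 5.19 to 5.9 CPM, and endothelial genes, led by VWF, 2.25 to 3.54 CPM. The part of these levels in the mucin results was not tested.

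All 10 mucin genes could be ranked by their level per length, given as CPM per kilobase of the counted gene interval. In DMSO, MUC3A was highest at 0.773 ± 0.042 (SD, n = 2), followed by MUC22 at 0.196 ± 0.0021 and MUC20 at 0.110 ± 0.028. MUC1 at 0.0482 ± 0.0098, MUC12 at 0.0314 ± 0.0085 and MUC13 at 0.0200 ± 0.0092 came next. The remaining genes were lower again, with MUC21 at 0.00408, MUC5AC at 0.00256, MUC5B at 0.00180 and MUC2 at 0.00113 CPM per kilobase. The DMSO libraries of neighbors in this order overlapped for MUC12 and MUC13, and for each pair of neighbors from MUC21 down to MUC2. For the other neighbors they did not overlap. The gel-forming genes MUC5AC, MUC5B and MUC2 and the transmembrane MUC21 took the last 4 places. These 4 genes had 0 to 15 counts per library, and the order among them was not resolved at this depth.

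**Figure D1:**
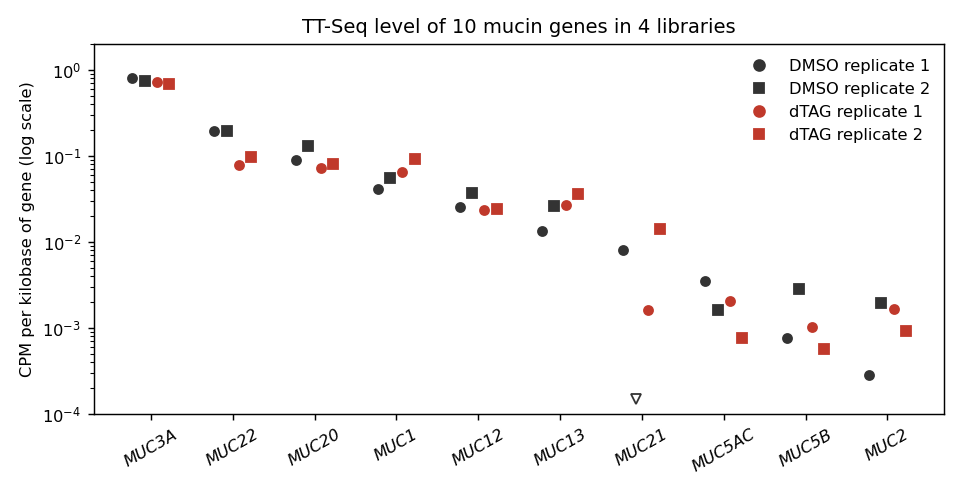
Level of each of the 10 mucin genes in CPM per kilobase of gene (log axis), 1 point per library, ordered by the DMSO mean. MUC3A and MUC22 lead in DMSO, the gel-forming genes sit at the low end, and the open triangle marks a DMSO library with 0 counts for MUC21.

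The plot of levels by library shows the MUC22 points of both dTAG libraries well below those of both DMSO libraries, while the MUC3A points nearly coincide. Counted over the 10 genes together, the libraries held 2399 and 2524 counts in DMSO and 2006 and 1875 in dTAG. MUC3A gave 62.4% and 55.3% of these in DMSO and 67.4% and 62.2% in dTAG. MUC22 gave 20.0% and 19.5% in DMSO, and 9.72% and 11.8% in dTAG, so its share of mucin counts was lower in both dTAG libraries.

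MUC22 (ENSG00000261272.1) is a transmembrane mucin gene in the major histocompatibility complex, at chr6:31010474-31035402 on the plus strand of hg38. The libraries held 480 and 491 MUC22 counts in DMSO and 195 and 221 in dTAG. On the CPM scale these were 4.84 and 4.92 in DMSO and 1.95 and 2.45 in dTAG, with means of 4.88 ± 0.053 and 2.20 ± 0.35 (SD, n = 2 each). Both dTAG libraries lay below both DMSO libraries, and the gap was many times the spread within either group. MUC22 was chosen for its fall in these same values, so the separation is no test of that fall. The log2 fold change was -1.15 with a standard error of 0.20. In bulk RNA, fewer cells transcribing a gene and less transcription per cell cannot be told apart. MUC22 was the 5th largest fall among the 12612 tested genes, just behind ATOH8 at -1.29 and just ahead of SH2D3C at -1.11 on the log2 scale. That place depended on the libraries and on the filter, and was 14th without DMSO replicate 1, 28th without dTAG replicate 1, 34th of 13865 genes with a minimum of 10 counts and 1048th of 17450 with no count filter.

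Among the 10 mucin genes, 5 passed the count minimum and 5 did not. At an adjusted p under 0.05 in edgeR, the call used here for all genes, 1 of the 5 tested genes (MUC22) counted as lower and 0 as higher, beside 7.1% of all tested genes called, 3.66% lower and 3.44% higher. Since MUC22 was chosen for its fall in this contrast, its call is no test of that fall. Of the 5 tested mucin genes, MUC22, MUC20, MUC12 and MUC3A had both dTAG libraries below both DMSO libraries, and MUC13 had both above. Across all tested genes, 30.7% were separated in the lower direction and 28.1% in the higher one, so separation was common over the whole table. The median log2 fold change was -0.40 over the 5 mucin genes, with the chosen MUC22 among them, and -0.01 over all tested genes. With trends in GC content and gene length removed, the values were -1.12 for MUC22, -0.395 for MUC20 and -0.285 for MUC12. In that setting MUC3A stood at 0.0204 and MUC13 at 0.572.

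**Figure D2:**
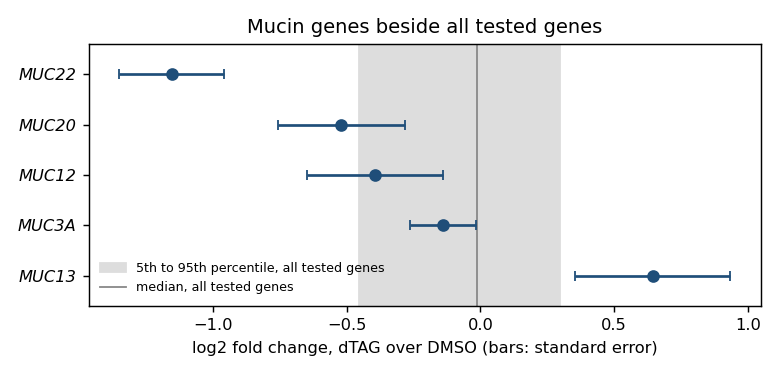
Log2 fold change of dTAG over DMSO for the 5 mucin genes that passed the count minimum, with bars of 1 standard error; the grey band spans the 5th to 95th percentile of all 12612 tested genes and the line is their median. MUC22 lies at -1.15 and MUC20 at -0.52, both left of the band that starts at -0.45, though the MUC20 bar reaches into it. MUC13 at 0.64 lies right of its end at 0.30. The band pools genes of all levels. In level per length, MUC20 and MUC13 stand at percentiles 11.5 and 3.16 of the tested genes.

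The gene interval of MUC22 carries the repeat structure of a mucin. Its Ensembl canonical transcript has 4 exons and 6019 exon bases, 24.1% of the interval, of which the largest exon holds 4599, so most of the counted interval is intron. Repeats are shown because they are what makes a gene a mucin and because reads in them could map to several places. Each line gives 3 neighboring units of the hg38 coding strand, all inside a coding part of exon 2, with the first unit in capitals. A unit here is the spacing at which the largest part of the interval closely matched itself, and it can span several shorter repeats. It was 90 bases in MUC22 (chr6:31028714-31028983), 45 bases in MUC21 (chr6:30986481-30986615) and 51 bases in MUC3A (chr7:100958535-100958687). The 90 bases of MUC22 hold a shorter repeat several times, so they are not its smallest unit.
MUC22: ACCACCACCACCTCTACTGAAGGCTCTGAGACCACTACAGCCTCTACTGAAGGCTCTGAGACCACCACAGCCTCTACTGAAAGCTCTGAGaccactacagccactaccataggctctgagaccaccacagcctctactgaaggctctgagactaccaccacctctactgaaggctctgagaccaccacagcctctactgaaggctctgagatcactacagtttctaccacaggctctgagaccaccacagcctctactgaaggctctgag
MUC21: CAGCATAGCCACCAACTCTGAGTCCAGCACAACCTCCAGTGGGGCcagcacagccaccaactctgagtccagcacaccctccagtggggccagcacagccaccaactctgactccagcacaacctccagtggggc
MUC3A: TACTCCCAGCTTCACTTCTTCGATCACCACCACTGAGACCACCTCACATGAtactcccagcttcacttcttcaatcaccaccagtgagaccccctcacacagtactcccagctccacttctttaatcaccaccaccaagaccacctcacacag
The sequence matched itself 1 unit further on at 87.7% of bases in MUC22, 93.3% in MUC21 and 90.3% in MUC3A. These percentages are for the best-matching stretch of a fixed length in each interval. That stretch starts at the first printed base and is longer than the printed units. Stretches that matched closely at this spacing took up 2.31% of the MUC22 interval, 20.5% of MUC21 and 8.88% of MUC3A. Repeats that match less closely or at another spacing are not counted. These shares are therefore not the full extent of the repeats and do not compare it between genes. Of all 50-base windows in the gene interval, 94.1% occurred once in the hg38 chromosomes for MUC22, against 93.2% for MUC21 and 97.1% for MUC3A. The share was lower for MUC1 at 74.3%, MUC12 at 74.4% and MUC20 at 77.2%, where counts can be short of reads that map to several places.

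Promoters are shown for the genes at the top of the ranking that RefSeq lists (MUC22 and MUC3A) and for MUC13, the tested gene that lay higher in dTAG. RefSeq promoter windows, of 250 bases before and 50 after the start, were found for 6 of the 10 genes in GRCh38.p14. Capitals mark the letters searched on both strands. The letters were TATAAA for the TATA box, CCAAT for the CCAAT box and GGGCGG for the GC box. The sites of factors were TGANTCA for AP-1, TGACGTCA for the CRE, GATAAG for GATA factors (in 6.36% of promoters) and TGTTTAC for forkhead factors (in 3.42%). The windows are chr6:31010224-31010523 on the plus strand, chr7:100949284-100949583 on the plus strand and chr3:124934702-124935001 on the minus strand.
MUC22: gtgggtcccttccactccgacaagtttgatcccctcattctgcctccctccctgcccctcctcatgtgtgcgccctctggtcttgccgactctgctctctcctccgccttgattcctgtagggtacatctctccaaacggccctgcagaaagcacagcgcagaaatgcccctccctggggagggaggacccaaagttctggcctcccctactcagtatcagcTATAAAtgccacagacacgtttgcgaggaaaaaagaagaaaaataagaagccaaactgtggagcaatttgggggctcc
MUC3A: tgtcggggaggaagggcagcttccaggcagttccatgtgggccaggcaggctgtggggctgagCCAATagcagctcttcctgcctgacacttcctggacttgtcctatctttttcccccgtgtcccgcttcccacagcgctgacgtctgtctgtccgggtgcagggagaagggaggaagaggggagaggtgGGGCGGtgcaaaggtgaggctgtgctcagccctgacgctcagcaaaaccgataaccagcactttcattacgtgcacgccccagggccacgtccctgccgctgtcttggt
MUC13: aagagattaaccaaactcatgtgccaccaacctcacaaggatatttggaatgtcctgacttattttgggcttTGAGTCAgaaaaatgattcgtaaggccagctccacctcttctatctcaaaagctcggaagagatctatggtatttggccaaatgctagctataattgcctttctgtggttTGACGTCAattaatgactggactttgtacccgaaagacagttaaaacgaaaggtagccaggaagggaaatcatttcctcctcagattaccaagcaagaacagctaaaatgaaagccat
The MUC22 window held TATAAA with its first base 28 bases before the start, letters that 11.5% of the 35116 RefSeq promoters hold, and no match to the other motifs. MUC3A held CCAAT, found in 34.6% of promoters, and GGGCGG, found in 45% of promoters. MUC13 held TGANTCA, found in 7.71%, and TGACGTCA, found in 1.85%. GC content was 55.3% in the MUC22 window, 61.7% in MUC3A and 41.0% in MUC13, beside a median of 58.7% over all promoters. The RefSeq start of MUC13 lies inside its counted interval, downstream of the interval's own first base. A match is a description of letters, not evidence that a factor binds there.

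The nearest mucin gene to MUC22 is MUC21 (ENSG00000204544.5), at chr6:30983718-30989903, 20570 bases upstream on the same strand. MUC21 encodes a transmembrane mucin of squamous and lung epithelium. It had 5 and 0 counts in DMSO and 1 and 8 in dTAG, so its groups overlapped and no change was detectable at this depth. The other genes around MUC22 were examined as a list of 34 genes within 500 kb, of which 23 were tested. Among these, 0 were called higher and 2 lower, by the quasi-likelihood test of edgeR and Benjamini-Hochberg adjusted p-values, beside 3.66% called lower over all tested genes. PPP1R10, which encodes a regulatory subunit of protein phosphatase 1, went from 596 ± 88 to 455 ± 18 CPM, with a log2 fold change of -0.39 ± 0.11 (SE, edgeR adjusted p = 0.036). FLOT1, a gene for the membrane raft protein flotillin, went from 95.8 ± 13 to 75.0 ± 1.0 CPM, with a log2 fold change of -0.35 ± 0.09 (SE, edgeR adjusted p = 0.025). The median was -0.01 over all tested genes and -0.16 over the 23 neighbors, which ran from -0.42 to 0.32. MUC22 at -1.15 lay below every one of them. Since MUC22 was chosen as one of the largest falls, that place was nearly given by the choice. Over all tested genes, the log2 fold change was correlated with GC content (Spearman -0.56). With GC and length trends removed, 4 neighbors were called higher and 3 lower, beside 1343 higher and 941 lower over all tested genes. The highest level per length among the neighbors was that of IER3, an immediate early gene, at 243 ± 33 CPM per kilobase in DMSO. Without dTAG replicate 1 neither PPP1R10 nor FLOT1 was called (adjusted p = 0.44 and 0.41 in edgeR), and without dTAG replicate 2 neither was called (0.91 and 0.66). With the ERCC factor as a covariate the log2 fold changes were -0.128 for PPP1R10 and -0.146 for FLOT1 and neither was called (edgeR adjusted p = 0.20 and 0.21), and with ERCC totals both turned positive, at 0.29 and 0.33.

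**Figure D3:**
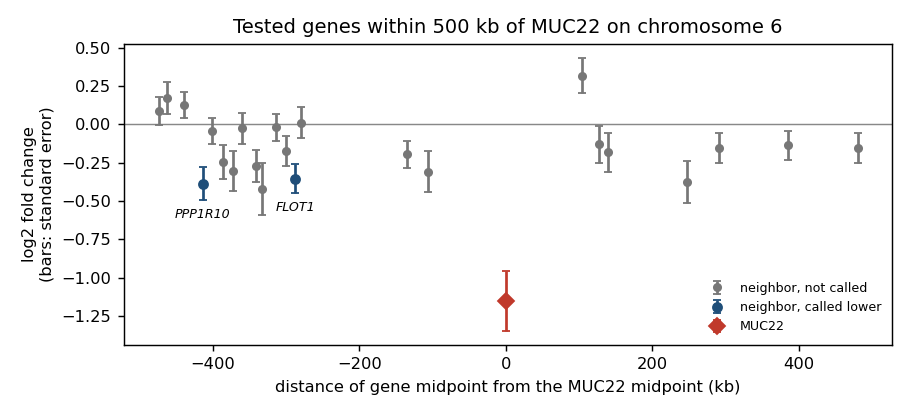
Log2 fold change of dTAG over DMSO, with bars of 1 standard error, against distance in kb from the MUC22 midpoint, for the 23 tested neighbors and MUC22. MUC22, chosen for its fall in this contrast, is at -1.15, and the 23 neighbors run from -0.42 to 0.32.

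Among the transmembrane mucins of the chromosome 7 cluster, MUC3A and MUC12 lie 1276 bases apart. MUC3A (ENSG00000169894.17, chr7:100949555-100968346), an intestinal mucin of the brush border, stood at 15.1 and 14.0 CPM in DMSO and 13.5 and 12.9 in dTAG. Its group means of 14.5 ± 0.79 and 13.2 ± 0.41 differed by a log2 fold change of -0.14 with a standard error of 0.12. MUC12 (ENSG00000205277.9, chr7:100969623-101018949), a further cell surface mucin of the colon, had 124 and 184 counts in DMSO and 116 and 108 in dTAG. Its mean levels of 1.55 ± 0.42 CPM in DMSO and 1.18 ± 0.027 in dTAG gave a log2 fold change of -0.40 with a standard error of 0.25. The lower DMSO library was close to both dTAG libraries for MUC12. MUC17, the next gene of this cluster, had between 1 and 8 counts and was not tested.

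On chromosome 3, MUC20 (ENSG00000176945.16, chr3:195720882-195741123), a mucin known to bind the MET receptor, had 181 and 262 counts in DMSO and 147 and 148 in dTAG. Its levels were 1.83 and 2.63 CPM in DMSO and 1.47 and 1.64 in dTAG, a log2 fold change of -0.52 with a standard error of 0.24. MUC4, its neighbor at 5641 bases, encodes a mucin that interacts with ERBB2 and stood at 0.814 ± 0.22 CPM in DMSO and 0.695 ± 0.075 in dTAG. MUC13 (ENSG00000173702.7, chr3:124905442-124953819), abundant in colon and colon cancer, went the other way. It had 65 and 128 counts in DMSO and 130 and 157 in dTAG, or 0.656 and 1.28 CPM against 1.30 and 1.74 CPM. The second DMSO library nearly met the first dTAG library, so the groups were separated by little. The log2 fold change of MUC13 was 0.64 with a standard error of 0.29, and the gene was not called. With the ERCC factor as a covariate it was 1.24, and MUC13 was called higher in that setting.

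**Figure D4:**
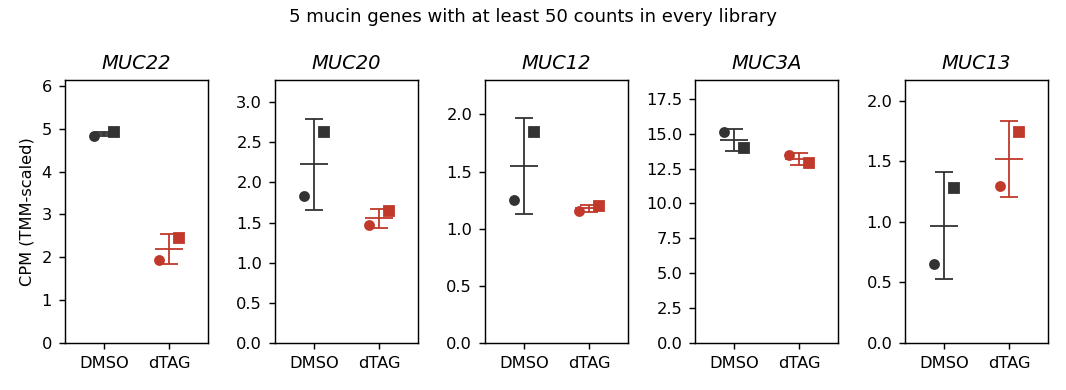
TMM-scaled CPM of the 5 mucin genes with at least 50 counts in every library, 1 point per library, with the group mean and SD (n = 2) as bars and each axis starting at 0. The MUC22 groups are far apart, at 4.84 and 4.92 CPM in DMSO against 1.95 and 2.45 in dTAG, while the spread of the DMSO libraries of MUC12, MUC13 and MUC20 reaches close to the dTAG points.

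The plot of CPM by group shows that the DMSO libraries differed from each other more than the dTAG libraries did for MUC20 and MUC12, and that replicate 2 was the higher DMSO library for MUC20, MUC12 and MUC13. When DMSO replicate 1 was left out, the log2 fold change was -0.758 for MUC20, -0.647 for MUC12 and 0.239 for MUC13. When DMSO replicate 2 was left out instead, these values were -0.237, -0.0901 and 1.2. When dTAG replicate 1 was left out, the MUC22 log2 fold change was -0.99. Leaving out 1 library could not reverse the MUC22 direction, since both dTAG libraries lay below both DMSO libraries.

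MUC1 (ENSG00000185499.16, chr1:155185824-155192916), the best known transmembrane mucin, whose cytoplasmic tail is phosphorylated by growth factor receptors, was under the count minimum with 29 and 39 counts in DMSO and 46 and 59 in dTAG. Both dTAG libraries lay above both DMSO libraries. Pooled per group, 68 counts in DMSO have an exact Poisson 95% interval of 52.8 to 86.2, and 105 counts in dTAG one of 85.9 to 127, which covers counting error only. With a minimum of 10 counts the log2 fold change was 0.70 with a standard error of 0.37. The MUC1 interval shares 1450 bases with ENSG00000273088 on the same strand, and genes that lie wholly inside a same-strand gene had 0 counts in 374 of 374 cases, so part of the MUC1 reads may be missing from its count.

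The gel-forming genes lie together on chromosome 11, where MUC2 (ENSG00000198788.8) spans chr11:1074875-1110511, MUC5AC (ENSG00000215182.8) chr11:1157953-1201138 and MUC5B (ENSG00000117983.17) chr11:1223066-1262172. MUC2 had 1 and 7 counts in DMSO and 6 and 3 in dTAG. MUC5AC, a mucin of stomach and airway, had 15 and 7 counts against 9 and 3. MUC5B, the main mucin of small airways and salivary glands, had 3 and 11 counts against 4 and 2. The groups overlapped for all 3 of these genes. MUC6, a stomach mucin beside MUC2, had 0 or 1 count in each library. A count of 3, the number taken as the floor, corresponds to 0.0299 to 0.0332 CPM depending on the library.

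A further 13 genes outside the 10 were listed as other mucins, and 4 of them (OVGP1, MUC4, CD164 and MCAM) were tested. By edgeR's quasi-likelihood test, 0 of these 4 were called higher and 0 lower, with log2 fold changes from -0.41 to 0.17 and a median of -0.10. CD164, the gene for the sialomucin endolyn, had the highest level per length of this list at 5.27 ± 0.61 CPM per kilobase in DMSO. The other 9 were under the minimum, and MUC15 and MUCL1 had no counts in any library. MUC19 had 73 and 59 counts in DMSO and 26 and 41 in dTAG, and MUC16, the carrier of the CA125 antigen, had 40 and 55 against 54 and 37. MUCL3, 29496 bases upstream of MUC21, had 25 and 22 counts against 19 and 40.

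Among the enzymes that build mucin sugars, GALNT5 was called higher and ST3GAL2 lower. That is about the share called over all tested genes, and several settings did not keep the calls. GALNT enzymes attach the first sugar, N-acetylgalactosamine, to serine or threonine. Of 18 GALNT-type genes, 14 were tested, 1 was called higher and 0 lower, with a median log2 fold change of 0.11, beside 7.1% of all tested genes called in either direction. The called gene, GALNT5, went from 8.71 ± 0.70 to 11.96 ± 0.77 CPM, a log2 fold change of 0.46 ± 0.14 (SE, edgeR adjusted p = 0.048). Among 20 genes of enzymes that extend or cap the chains, 12 were tested, 0 were called higher and 1 lower, with a median of -0.07. The called gene, ST3GAL2, which adds sialic acid to galactose, went from 54.8 ± 5.0 to 44.3 ± 0.86 CPM, a log2 fold change of -0.31 ± 0.09 (SE, edgeR adjusted p = 0.048). Neither call held without DMSO replicate 2 (edgeR adjusted p = 0.051 for GALNT5 and 0.065 for ST3GAL2), without dTAG replicate 1 (0.48 and 0.43) or without dTAG replicate 2 (0.60 and 0.89). With the ERCC factor as a covariate neither was called (edgeR adjusted p = 0.12 for GALNT5 and 0.30 for ST3GAL2). The highest levels per length were those of GALNT11 among the starting enzymes, at 1.20 ± 0.076 CPM per kilobase in DMSO, and of ST6GALNAC4 among the others, at 2.43 ± 0.24.

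Among genes that work beside mucins, LGALS1 was called lower and EGFR higher. Over all tested genes, the log2 fold change was correlated with GC content (Spearman -0.56) and with gene length (Spearman 0.42). With these trends removed, the log2 fold change was -0.235 for LGALS1 and 0.259 for EGFR. Of 16 genes for proteins packed with mucus or marking goblet cells, 2 were tested and 0 were called in either direction, and the trefoil factor genes TFF2 and TFF3 had no counts in any library. Their highest level per length was 0.0813 ± 0.0050 CPM per kilobase in DMSO, for the kallikrein gene KLK1. Of 17 transcription regulators of mucin genes, 8 were tested and 0 were called, with log2 fold changes from -0.37 to 0.22. KLF4, a zinc finger factor of goblet cell differentiation, had the highest level of that list at 4.25 ± 0.30 CPM per kilobase in DMSO. Of 8 genes for proteases that shed mucins and for galectins that bind their sugars, 6 were tested, 0 were called higher and 1 lower. The called gene, LGALS1, which encodes galectin-1, went from 46.2 ± 0.62 to 33.4 ± 4.4 CPM, a log2 fold change of -0.47 ± 0.10 (SE, edgeR adjusted p = 0.0076). It also had the highest level of its list, at 11.0 ± 0.15 CPM per kilobase in DMSO, and its call was lost without dTAG replicate 2 (edgeR adjusted p = 0.79). Of 8 signaling partners of MUC1 and MUC13, all were tested, 1 was called higher and 0 lower. It was EGFR, the epidermal growth factor receptor, at 216 ± 6.9 CPM in DMSO and 265 ± 3.7 in dTAG, a log2 fold change of 0.30 ± 0.09 (SE, edgeR adjusted p = 0.047). That call was lost without dTAG replicate 1 (edgeR adjusted p = 0.56) and without dTAG replicate 2 (0.89). GRB2, an adaptor between receptors and RAS, had the highest level of these partners at 4.56 ± 0.24 CPM per kilobase in DMSO. Over these lists and the other mucins, 54 of 100 genes were tested, 2 were called higher and 2 lower, and the median was -0.06. Over all tested genes 3.44% were called higher and 3.66% lower, with a median of -0.01.

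The genes whose pattern over the 4 libraries was most like that of MUC22, by the Euclidean distance of log2 CPM centered on the DMSO mean, were MAP2K6, PPM1N, SAMD11, ACSBG1 and PIP5K1B. MAP2K6, which encodes a kinase of the p38 pathway, was nearest at a distance of 0.26 with a log2 fold change of -0.99. The distance of PPM1N was 0.29, of SAMD11 0.32, of ACSBG1 0.33 and of PIP5K1B 0.35. Relative to the DMSO mean, MUC22 itself stood at -1.327 in dTAG replicate 1 and -0.996 in dTAG replicate 2 on the log2 scale. These are resemblances over 4 libraries of the same contrast and are given as a description.

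Across processing settings, MUC22 stayed lower in dTAG. Its log2 fold change was between -1.33 and -0.48 over all alternatives, and the value of -0.48 came from scaling libraries by their ERCC spike-in totals, under which the median of all tested genes moved to 0.63. Relative to the median of all genes in the same setting, MUC22 was between -1.32 and -0.98 on the log2 scale. The directions of MUC20, MUC12 and MUC3A did not hold in every setting, since they turned to 0.20, 0.32 and 0.49 with ERCC totals.

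**Figure D5:**
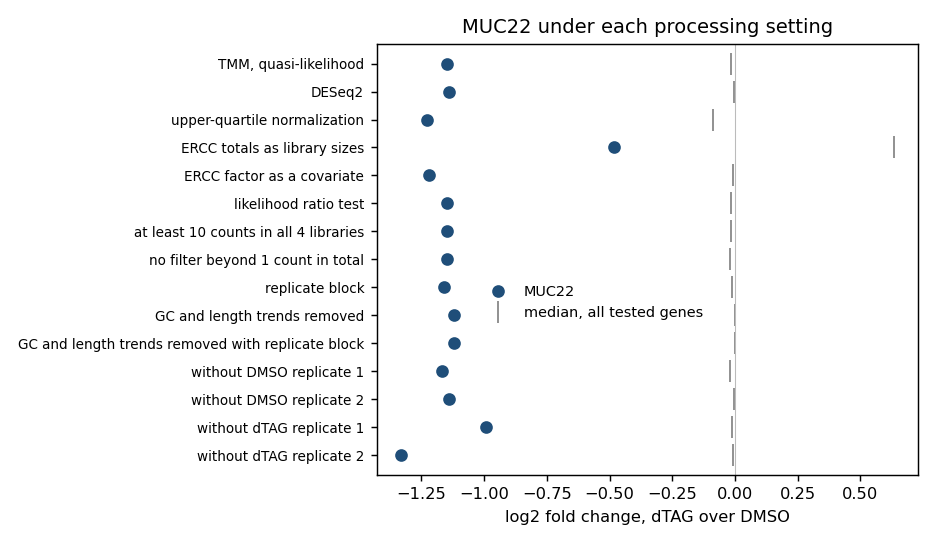
Log2 fold change of MUC22, dTAG over DMSO, under the main setting (top) and each alternative, beside the median of all tested genes in that setting. MUC22 lies left of the median in every setting, including ERCC totals, where MUC22 is at -0.48 and the median at 0.63.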

How the data were processed

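TT-Seq counts came from HCT116 cells with degradable KAP1, 2 libraries per condition. Per the labels and methods, the authors used Trim Galore 0.6.4 for trimming, STAR for mapping to hg38 and featureCounts (Subread 1.6.3) for counting over whole protein-coding genes and 92 ERCC RNAs. The deposited values are raw read counts, not normalized. Strand and overlap settings are not given in the sources used here. Of genes inside a same-strand gene, 374 of 374 had 0 counts, against 112 of 575 inside an opposite-strand gene, so overlapping genes can be undercounted. Of 11129 genes with the same end in GENCODE 44, 6780 had a deposited start 1 base lower and 187 an equal one, so starts were read as counted from 0 and 1 was added to printed starts. The annotation release differs for some genes, MUC3A, MUC12 and MUC20 among them.

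The tests were run with edgeR 4.0.16 in R 4.3.3 (quasi-likelihood F test, two-sided, TMM factors, a minimum of 50 counts in every library, Benjamini-Hochberg adjustment over all tested genes, calls at an adjusted p under 0.05). The authors name spike-in normalization whose function is not given, so TMM was used and ERCC settings were alternatives. CPM is scaled with TMM factors, a standard error is |log2 fold change| over the root of F, and SDs are over 2 libraries. Low counts have exact Poisson 95% intervals, for counting error only. The code was tested on simulated data. Alternatives were DESeq2 1.42.0, other scalings and count filters, removal of GC and length trends, a replicate block and leaving out each library.

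The mucin genes and all gene lists were chosen with earlier results of these data known. Genes named were the 10 mucin genes, every called gene of a list up to 4, the gene of each list with the highest level per kilobase in DMSO, the highest marker of each marker list and those at 0, genes that overlap a mucin gene, and the 5 genes most like MUC22; other genes were named after their values were seen. No column was left out.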

Additional observations from a re-analysis of the deposited data

How the results depend on the processing

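The number of genes called was 895 of 12612 tested. It was 0 with ERCC totals as library sizes (229 at an unadjusted p under 0.05; 1252 by DESeq2 with its own size factors), 1593 with a likelihood ratio test, 1417 with no count filter, and 2284 after removal of GC and length trends. Leaving out 1 library, where the lone library of a group is assumed to vary like the other group, gave 69 to 5491 calls. Of the 10 mucin genes, 1 was called, against 0 with ERCC totals, 2 with the ERCC factor, and 0 to 3 on leaving out 1 library. The MUC22 log2 fold change was -0.48 with ERCC totals and -1.33 to -0.99 on leaving out 1 library. Of the neighbors of MUC22, 2 were called, against 0 with ERCC totals, 7 with trends removed and 0 to 9 on leaving out 1 library. Of the pathway genes, 4 were called, against 0 with ERCC totals, 8 by the likelihood ratio test, 10 with trends removed and 0 to 20 on leaving out 1 library. Directions reversed with ERCC totals for MUC3A (0.49), MUC12 (0.32), MUC20 (0.20), LGALS1 (0.16), FLOT1 (0.33), PPP1R10 (0.29) and ST3GAL2 (0.36), with the ERCC factor for MUC12 (0.0405), and with trends removed for MUC3A (0.0204, and 0.0258 with the block). The cause was not tested. The order of levels held with plain library sizes.

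Over genes, the differences between replicates 2 and 1 in DMSO and in dTAG had a weak negative correlation (-0.25). The labels tie the numbers to no shared batch or day, so the replicates were not treated as pairs. Whether the libraries share other structure was not tested. With a replicate block, 340 genes, 0 neighbors and 1 pathway gene were called; with trends removed as well, 2636 genes, 8 neighbors and 12 pathway genes. A block with the numbers crossed, chosen after seeing the data, called 3190 genes, 2 mucin genes, 10 neighbors and 14 pathway genes. Depth limits the mucin genes with few counts. Differences of MUC21, MUC2, MUC5AC and MUC5B were not detectable.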
